A study of Arabidopsis thaliana with 16 samples.

Results

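The plastid genome of Arabidopsis thaliana encodes the core subunits of the photosynthetic complexes, and 44 of these genes were described here: 5 of photosystem I, 15 of photosystem II, 6 of the cytochrome b6f complex, 6 of the ATP synthase, 11 of the NDH complex, and rbcL. They were chosen by gene symbol from the 22746 probe sets of the Affymetrix ATH1 array. Probe sets are groups of short probes that each report 1 transcript or a few. The rule itself used no measured values, but it was set with earlier results of these data known. Each of the 44 genes had 1 probe set. The probe set of ndhB is shared by the 2 copies of that gene in the plastid genome, so ndhB stands for both copies.

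RNA came from whole 4-day-old seedlings of FHY3p:FHY3-GR fhy3-4, a transgenic line in the fhy3-4 mutant background in which the FHY3 promoter drives FHY3 fused to the glucocorticoid receptor (GR). FHY3 is a transcription factor of phytochrome A signalling, the pathway by which seedlings sense far-red light, and the fusion protein moves from cytoplasm to nucleus when dexamethasone (DEX) is given. Seedlings had grown in darkness or in continuous far-red light and then received 10 µM DEX or ethanol alone (mock) for 2 h, which gave 4 groups of 4 arrays: dark mock, dark DEX, far-red mock and far-red DEX. All 16 arrays carry the fusion and the mutation, and seedlings without the fusion were not analysed here, so an effect of DEX itself and one of the nuclear fusion protein cannot be told apart.

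Photosystem II takes electrons from water, the cytochrome b6f complex passes them on and pumps protons, photosystem I lifts them to ferredoxin, and the ATP synthase uses the proton gradient; the NDH complex returns electrons from ferredoxin to the chain, and RuBisCO fixes carbon dioxide. Their plastid genes are mostly read by the bacterial-type plastid RNA polymerase, with sigma factors made in the nucleus, and many share 1 primary transcript that is later cut. In etiolated seedlings the plastids are etioplasts without thylakoid stacks, and light starts their change into chloroplasts. Seedlings kept in continuous far-red light alone do not green, since the enzyme that turns protochlorophyllide into chlorophyllide needs light of shorter wavelength.

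The values are log2 signals as deposited. Array medians lay between 6.6 and 6.68, and the correlation between arrays within a group was 0.9956 to 0.9981. The primer used to label the RNA is not given in the sources used here, and plastid messages mostly lack long poly(A) tails, so it is unknown how fully each message was labelled. Signals of different probe sets are therefore not compared as amounts, and the results concern the same probe set between groups.

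The first question was how far-red light and darkness differ before the fusion protein enters the nucleus. Far-red mock was higher than dark mock for 34 of the 44 genes and lower for none (moderated test in limma, adjusted p under 0.05 over all 22746 probe sets), while 17.8% of all probe sets were called higher and 20.8% lower. The median log2 change of the 44 genes was 0.58, a 1.5-fold difference, against 0.00 over all probe sets, with a range from -0.50 to 2.31. The genes called higher were 4 of 5 in photosystem I, 14 of 15 in photosystem II, 4 of 6 in cytochrome b6f, 6 of 6 in the ATP synthase and 6 of 11 in NDH, and rbcL was not called. For 29 genes all 4 far-red arrays lay above all 4 dark arrays, as did 16.1% of all probe sets. In whole seedlings, a change in the number of cells or plastids and a change in RNA per cell cannot be told apart.

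**Figure D1:**
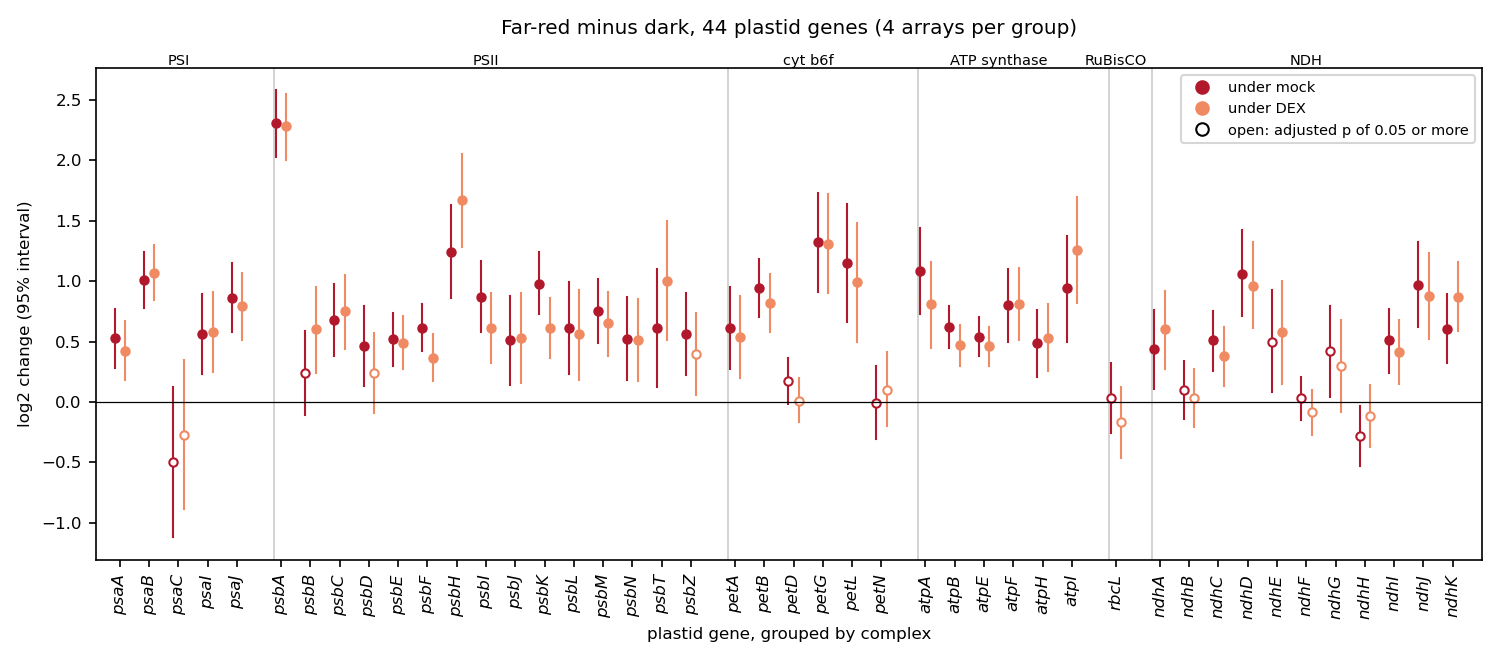
Log2 change of far-red against dark for each of the 44 genes (y axis, with 95% intervals from the fit over 16 arrays), under mock and under DEX, grouped by complex (PSI and PSII, photosystems I and II; cyt b6f, cytochrome b6f). Filled points have an adjusted p under 0.05; psbA stands highest at 2.31 and 2.28, and psaC, petD, petN, rbcL, ndhB, ndhF and ndhH lie near or below 0.

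The same light comparison under DEX takes its change from the other 8 arrays, so the 2 changes of a gene share no array. Both tests share the spread estimated over all 16 arrays, so arrays of one can alter the calls of the other. It again called 34 genes higher and none lower, with 17.5% of all probe sets called higher and 22.2% lower, and a median log2 change of 0.57 against -0.03 over all probe sets. For 25 genes the far-red DEX arrays all lay above the dark DEX arrays, as did 17.4% of all probe sets. By complex the 34 called genes were 4 of 5 in photosystem I, 13 of 15 in photosystem II, 4 of 6 in cytochrome b6f, 6 of 6 in the ATP synthase and 7 of 11 in NDH. Of the 44 genes, 32 were called higher in both light comparisons, as were 13.3% of all probe sets. psbD and psbZ were called under mock only, psbB and ndhE under DEX only, and 8 genes in neither: psaC, petD, petN, rbcL, ndhB, ndhF, ndhG and ndhH. The 2 log2 changes of a gene differed by less than 0.2 for 32 genes, and by at most 0.42, for psbH. Across the 44 genes they correlated at r = 0.925 (rho = 0.862), and at r = 0.892 over the 43 genes other than psbA; genes of 1 transcript and 1 set of arrays are not independent points.

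In photosystem II, psbA encodes D1, the reaction centre protein that is replaced most often. The psbA probe set gave log2 signals of 6.97, 7.06, 7.03 and 6.68 in dark mock, 6.93, 7.35, 6.68 and 6.74 in dark DEX, 9.48, 9.32, 8.93 and 9.25 in far-red mock and 9.31, 9.25, 9.03 and 9.21 in far-red DEX. All 8 far-red arrays lay above all 8 dark arrays, by more than the whole spread within any group. Its log2 change was 2.31 ± 0.13 under mock (SE; a 4.95-fold rise, adjusted p = 1.41e-11) and 2.28 ± 0.13 under DEX (adjusted p = 1.46e-11), the largest rise among the 44 genes in both.

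psbD encodes D2, the partner of D1. For psbD the log2 signals were 6.43, 6.12, 6.03 and 6.12 in dark mock, 6.53, 6.78, 6.37 and 6.22 in dark DEX, 7.21, 6.45, 6.36 and 6.5 in far-red mock and 7.04, 6.63, 6.64 and 6.56 in far-red DEX. Far-red mock replicate 1 was high, at 7.21, and the lowest far-red mock array, at 6.36, was below the highest dark mock array, at 6.43. Its change was 0.46 ± 0.16 under mock (SE, adjusted p = 0.0258), but 0.26 with an adjusted p of 0.125 without that array, and the call was also lost without dark mock replicate 2, 3 or 4 (0.0565, 0.0751 and 0.0579). Under DEX the change was 0.24 ± 0.16 (SE, adjusted p = 0.255). D1 and D2 form 1 dimer, and the 95% intervals of their log2 changes under mock, 2.03 to 2.58 for psbA and 0.13 to 0.79 for psbD, did not meet; the difference between them was not tested.

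The inner antenna proteins CP47 and CP43 come from psbB and psbC. Log2 signals of psbC were 8.84, 8.87, 8.76 and 8.51 in dark mock, 8.62, 9.23, 8.89 and 8.69 in dark DEX, 9.83, 9.48, 9.04 and 9.35 in far-red mock and 9.79, 9.7, 9.51 and 9.42 in far-red DEX. Every far-red array lay above all dark arrays of the same treatment, and psbC rose by 0.68 ± 0.14 under mock and 0.75 ± 0.14 under DEX (SE, adjusted p = 0.000654 and 0.000244). The psbB probe set gave log2 signals of 5.9, 6.24, 6.19 and 6.16 in dark mock, 5.97, 6.19, 5.93 and 6.12 in dark DEX, 7.14, 6.11, 6.06 and 6.14 in far-red mock and 6.8, 6.63, 6.72 and 6.44 in far-red DEX. In far-red mock 3 arrays stood at dark levels and replicate 1 stood at 7.14, while all far-red DEX arrays lay above all dark ones. The change of psbB was 0.24 ± 0.17 under mock (SE, adjusted p = 0.303) and 0.60 ± 0.17 under DEX (adjusted p = 0.00697).

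Among the small subunits, psbH rose most, by 1.24 ± 0.18 under mock and 1.67 ± 0.18 under DEX (SE, adjusted p = 1.40e-05 and 2.38e-07). Its dark mock arrays ran from 8.0 to 8.57 and its far-red mock arrays from 9.18 to 10.11. psbK and psbI, which share a transcript, rose by 0.98 and 0.87 under mock and by 0.61 each under DEX. psbM rose by 0.75 and 0.65. Its signal was close to the top of the scale, at 14.08 on far-red mock replicate 4, where the highest signal on an array was 14.48 to 14.72. The pair psbE and psbF, which encode cytochrome b559, rose by 0.52 and 0.61 under mock and by 0.49 and 0.36 under DEX. psbJ, psbL, psbN, psbT and psbZ had log2 changes between 0.51 and 0.61 under mock and between 0.40 and 1.0 under DEX, all called except psbZ under DEX (adjusted p = 0.0575). The calls of psbJ, psbL, psbN and psbT were lost in some fits with 1 array left out. Under mock psbJ held in 12 of 16 such fits, psbL in 15, psbN in 14 and psbT in 8, and without dark mock replicate 4 the change of psbT went from 0.61 to 0.35 with an adjusted p of 0.216. Under DEX psbJ and psbL held in 12 and psbN in 13, with the highest adjusted p (0.0973, 0.0852 and 0.0834) without dark DEX replicate 3.

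In photosystem I, psaA and psaB encode the 2 large proteins that hold the reaction centre chlorophylls. For psaB the log2 signals were 11.57, 11.51, 11.61 and 11.34 in dark mock, 11.34, 11.71, 11.5 and 11.41 in dark DEX, 12.9, 12.45, 12.45 and 12.27 in far-red mock and 12.6, 12.7, 12.46 and 12.48 in far-red DEX. All far-red arrays were above all dark arrays, and psaB rose by 1.01 ± 0.11 under mock (SE; a 2.01-fold difference, adjusted p = 2.53e-07) and 1.07 ± 0.11 under DEX (adjusted p = 9.04e-08). Log2 signals of psaA were 5.2, 4.82, 4.84 and 5.25 in dark mock, 5.17, 5.03, 5.27 and 4.66 in dark DEX, 5.65, 5.58, 5.54 and 5.45 in far-red mock and 5.56, 5.47, 5.26 and 5.54 in far-red DEX. The psaA arrays of far-red mock lay above those of dark mock, while under DEX the lowest far-red array, at 5.26, met the highest dark array, at 5.27. It rose by 0.53 ± 0.12 and 0.42 ± 0.12 (SE, adjusted p = 0.00111 and 0.00622). The small membrane subunits psaI and psaJ rose by 0.56 and 0.86 under mock and by 0.58 and 0.79 under DEX.

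psaC encodes the protein that carries the iron-sulphur clusters at the ferredoxin side. The psaC probe set gave log2 signals of 6.08, 7.63, 6.24 and 5.67 in dark mock, 6.8, 6.72, 5.7 and 6.3 in dark DEX, 6.42, 5.64, 5.7 and 5.87 in far-red mock and 6.11, 6.24, 5.98 and 6.08 in far-red DEX. Its dark mock arrays ran from 5.67 to 7.63, with replicate 2 far above the rest, and the groups overlapped. The change was -0.50 ± 0.30 under mock, the lowest of the 44 genes, and -0.27 ± 0.30 under DEX (SE, adjusted p = 0.208 and 0.528). With 95% intervals from -1.12 to 0.12 and from -0.89 to 0.35, neither a fall nor the absence of a change is shown. Without dark mock replicate 2 the change under mock was -0.09 (adjusted p = 0.798).

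**Figure D2:**
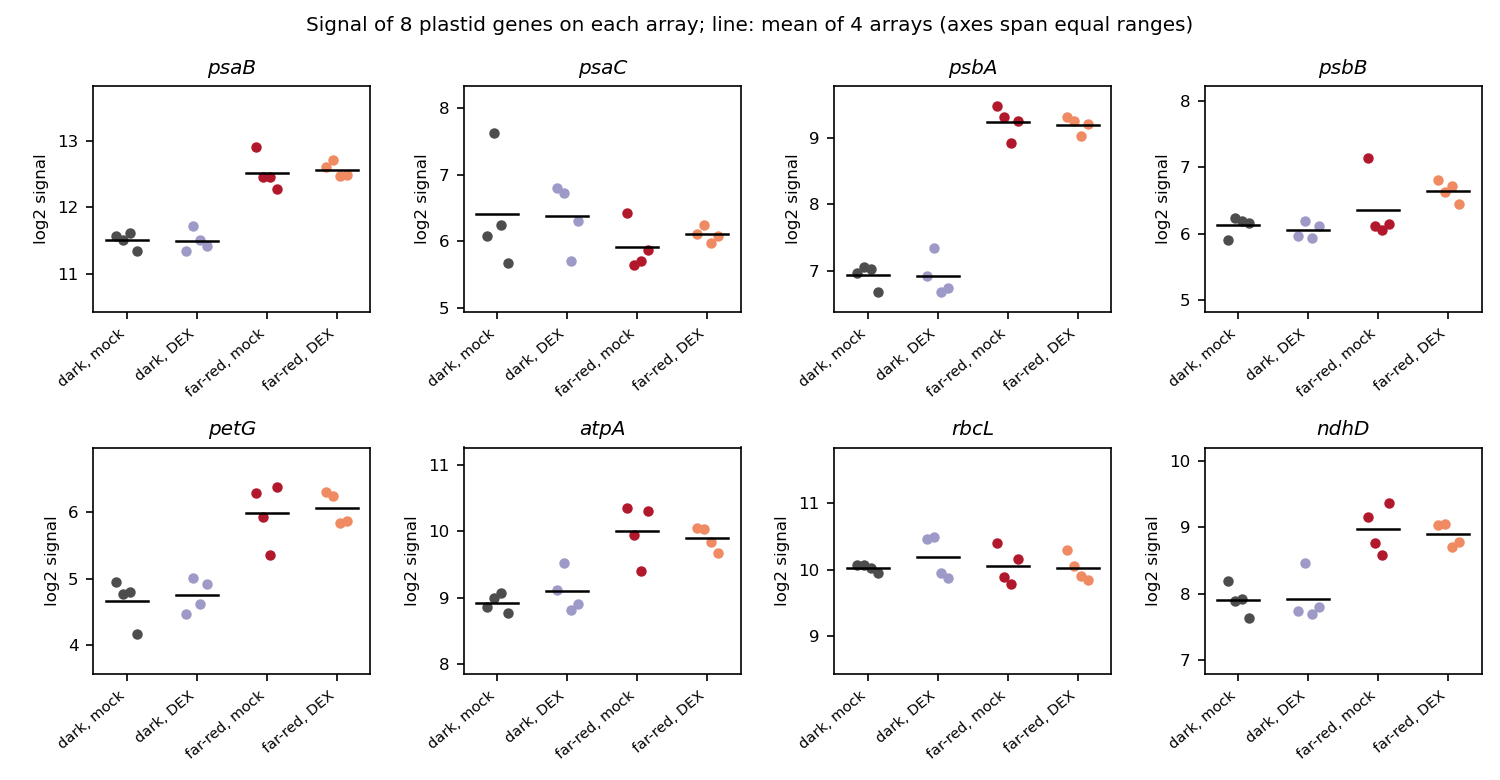
Log2 signal (y axis) on each array for 8 genes in the 4 groups; each point is 1 array, in replicate order from left to right, and the line is the mean of 4 arrays. The panels span the same number of log2 units. The far-red arrays stand apart from the dark ones for psbA, psaB, petG, atpA except 1 array, and ndhD, and overlap them for psaC and rbcL.

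In the cytochrome b6f complex, petA (cytochrome f) rose by 0.61 and 0.54 under mock and DEX. For petB the log2 signals were 10.85, 10.84, 10.91 and 10.71 in dark mock, 10.93, 11.03, 10.59 and 10.71 in dark DEX, 12.04, 11.57, 11.56 and 11.91 in far-red mock and 11.9, 11.6, 11.59 and 11.44 in far-red DEX. petB encodes cytochrome b6, and its far-red arrays all lay above the dark ones, with rises of 0.94 ± 0.12 and 0.82 ± 0.12 (SE, adjusted p = 1.30e-06 and 6.61e-06). Of the small subunits, petG rose most in this complex. Log2 signals of petG were 4.95, 4.76, 4.79 and 4.16 in dark mock, 4.46, 5.01, 4.61 and 4.92 in dark DEX, 6.29, 5.92, 5.35 and 6.38 in far-red mock and 6.3, 6.24, 5.84 and 5.86 in far-red DEX. Dark mock replicate 4 and far-red mock replicate 3 were the lowest of their groups, yet the 2 lights did not overlap. The change of petG was 1.32 ± 0.20 under mock (SE; 2.50-fold, adjusted p = 1.35e-05) and 1.31 ± 0.20 under DEX (adjusted p = 1.27e-05). petL, which helps to stabilise the complex, rose by 1.15 and 0.99.

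The small subunit gene petN was at the other end. The petN probe set gave log2 signals of 7.03, 6.88, 6.44 and 6.81 in dark mock, 6.57, 6.55, 6.84 and 6.64 in dark DEX, 7.02, 6.64, 7.17 and 6.29 in far-red mock and 6.65, 6.85, 6.67 and 6.84 in far-red DEX. All 4 groups overlapped, with changes of -0.01 ± 0.15 under mock and 0.10 ± 0.15 under DEX (SE, adjusted p = 0.981 and 0.644); the 95% intervals reached from -0.31 to 0.30 and from -0.20 to 0.41. petD, which encodes subunit IV, had changes of 0.17 and 0.01 (adjusted p = 0.154 and 0.934), on a dim probe set with group means of 4.13 to 4.33.

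All 6 ATP synthase genes rose in both light comparisons, and for each of them the far-red arrays lay above the dark arrays of the same treatment. For atpA the log2 signals were 8.86, 8.99, 9.07 and 8.77 in dark mock, 9.12, 9.53, 8.82 and 8.91 in dark DEX, 10.35, 9.95, 9.41 and 10.31 in far-red mock and 10.05, 10.04, 9.84 and 9.68 in far-red DEX. atpA, the alpha subunit of the catalytic head, rose most under mock, by 1.08 ± 0.17 (SE; 2.12-fold, adjusted p = 2.58e-05), and by 0.81 ± 0.17 under DEX (adjusted p = 0.000565). Log2 signals of atpB were 13.1, 13.17, 13.25 and 13.0 in dark mock, 13.29, 13.43, 13.18 and 13.08 in dark DEX, 13.78, 13.63, 13.68 and 13.91 in far-red mock and 13.77, 13.75, 13.68 and 13.66 in far-red DEX. The beta subunit gene atpB rose by 0.62 ± 0.08 and 0.47 ± 0.08 (SE, adjusted p = 2.90e-06 and 7.45e-05), and atpE of the epsilon subunit, cotranscribed with it, by 0.54 and 0.46. Both were close to the top of the scale: atpE stood at 13.27 to 14.05, where the highest signal on an array was 14.48 to 14.72. The files do not record whether spots were saturated.

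The subunits of the membrane part followed. The atpH probe set gave log2 signals of 8.08, 8.22, 8.24 and 8.12 in dark mock, 8.57, 8.41, 8.08 and 7.84 in dark DEX, 8.97, 8.75, 8.39 and 8.5 in far-red mock and 8.84, 8.82, 8.6 and 8.76 in far-red DEX. Ring subunit gene atpH showed the smallest rise of the complex under mock, 0.49 ± 0.13 (SE, adjusted p = 0.00549), with 0.53 ± 0.13 under DEX (adjusted p = 0.00263). atpI, the subunit beside the ring, rose by 0.94 and 1.26, and atpF of the stalk by 0.80 and 0.81.

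rbcL encodes the large subunit of RuBisCO. For rbcL the log2 signals were 10.07, 10.08, 10.03 and 9.96 in dark mock, 10.47, 10.49, 9.95 and 9.88 in dark DEX, 10.4, 9.9, 9.79 and 10.16 in far-red mock and 10.3, 10.06, 9.91 and 9.85 in far-red DEX. All 4 groups overlapped, and the dark mock arrays lay close together, from 9.96 to 10.08. The change was 0.03 ± 0.14 under mock and -0.17 ± 0.14 under DEX (SE, adjusted p = 0.901 and 0.384), with 95% intervals from -0.26 to 0.32 and from -0.46 to 0.12, so a rise as large as the median of the 44 genes lies outside both. Its mean signal was above that of 91.5% of all probe sets, so the probe set was not dim.

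The NDH genes were divided between those that rose and those that were not called. Log2 signals of ndhD were 8.2, 7.89, 7.92 and 7.63 in dark mock, 7.74, 8.47, 7.7 and 7.8 in dark DEX, 9.15, 8.77, 8.59 and 9.37 in far-red mock and 9.04, 9.05, 8.7 and 8.78 in far-red DEX. For ndhD, a membrane subunit, far-red lay above dark throughout, and the rise was 1.06 ± 0.17 under mock (SE; 2.09-fold, adjusted p = 3.52e-05) and 0.96 ± 0.17 under DEX (adjusted p = 9.27e-05). ndhJ rose by 0.97 and 0.88, ndhK by 0.60 and 0.87, ndhC by 0.51 and 0.38, ndhI by 0.51 and 0.41 and ndhA by 0.44 and 0.60. With 1 array left out, ndhA under mock held in 13 of 16 fits (adjusted p up to 0.128, without far-red mock replicate 4). Under DEX ndhC held in 15 (0.0639 without dark DEX replicate 3) and ndhI in 14 (0.053 without dark DEX replicate 4). ndhE had changes of 0.50 and 0.58 (adjusted p = 0.0579 and 0.0292; under DEX it held in 10 of 16 fits, with 0.112 without far-red DEX replicate 1), and ndhG of 0.42 and 0.30 (0.0799 and 0.212).

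The ndhH probe set gave log2 signals of 4.39, 4.2, 4.39 and 4.4 in dark mock, 4.3, 4.83, 4.44 and 4.2 in dark DEX, 4.45, 3.95, 3.87 and 4.01 in far-red mock and 4.42, 4.29, 4.3 and 4.28 in far-red DEX. The far-red mock arrays of ndhH, apart from replicate 1, lay below the dark mock arrays, and its change was -0.28 ± 0.12 under mock and -0.12 ± 0.12 under DEX (SE, adjusted p = 0.0784 and 0.502). Without far-red mock replicate 1 it was -0.40 with an adjusted p of 0.00618, and without dark DEX replicate 2 it was -0.28 with 0.0346. For ndhB the log2 signals were 4.37, 4.11, 4.04 and 3.74 in dark mock, 4.19, 4.08, 4.03 and 3.9 in dark DEX, 3.99, 4.05, 4.2 and 4.42 in far-red mock and 4.13, 4.24, 3.98 and 3.98 in far-red DEX. The groups of ndhB overlapped, with changes of 0.10 ± 0.11 and 0.03 ± 0.11 (SE, adjusted p = 0.554 and 0.873). ndhF had changes of 0.03 and -0.08 (adjusted p = 0.85 and 0.495). These probe sets were dim. The lower quartile of all signals was 4.44, the means of ndhB, ndhF and petD were under it in every group, and the group means of ndhH ran from 4.07 to 4.44. The files hold no background level, so it is unknown whether a light difference in these genes could have been detected.

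Among the 44 genes, brightness went with the calls. Of the 30 genes whose mean signal was above the median of all probe sets, 28 were called higher under mock, all but petN and rbcL. Of the 14 below it, 6 were. The shares of all probe sets called at the same brightness were not computed, so this may not be particular to these genes. Across the 44 genes the log2 change and the mean signal correlated at r = 0.28, a description only.

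Genes that share a transcript were then compared. The RefSeq gene order of the TAIR10.1 assembly places the members of each of the 10 textbook transcription units side by side, tRNA genes aside, except that psbN, known to be read from the opposite strand, lies between psbT and psbH. Among the units of at least 3 genes, changes were closest under mock within psbE-psbF-psbL-psbJ, 0.51 to 0.61, with 0.36 to 0.56 under DEX. They were widest within ndhH-ndhA-ndhI-ndhG-ndhE-psaC-ndhD, from -0.50 to 1.06 under mock and from -0.27 to 0.96 under DEX, and within psbB-psbT-psbH-petB-petD, from 0.17 to 1.24 and from 0.01 to 1.67. In both light comparisons psbH had the highest and petD the lowest value of its unit, and ndhD the highest and psaC the lowest of theirs. The low ends of these 2 units were poorly measured. petD, with group means of 4.13 to 4.33, is on a dim probe set, as is ndhH. psaC had an SE of 0.30, and its change under mock was -0.09 without dark mock replicate 2. All 3 genes of petL-petG-psaJ rose by 0.79 to 1.32. Differences between genes of a unit were not tested.

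**Figure D3:**
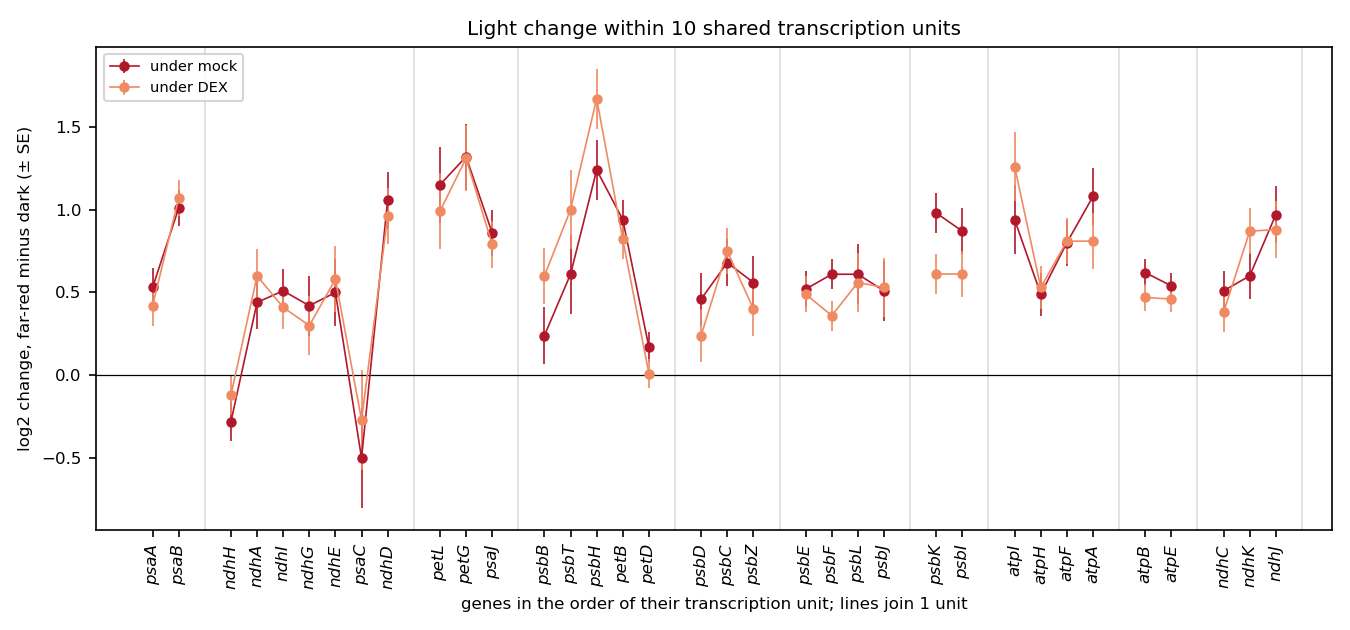
Log2 change of far-red against dark (y axis, ± SE) for the genes of 10 shared transcription units, in the order of the unit, under mock and under DEX; lines join the genes of 1 unit. psbE-psbF-psbL-psbJ is nearly flat, and the units that start with psbB and ndhH are not.

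The other plastid genes gave the closest comparison. Of 34 listed genes for the plastid RNA polymerase, ribosomal proteins and other functions, 32 were measured, and under mock 7 were higher and 3 lower in far-red, with a median log2 change of 0.05 and a range from -0.67 to 0.93. Under DEX 4 were higher and 3 lower, with a median of 0.01. The 4 genes with the smallest p under mock were ccsA, needed to attach haem to cytochrome f (0.93), rpl33 (0.60) and rps14 (0.38) of the ribosome, and accD of fatty acid synthesis (-0.67). In gene order rps14 is next to psaB and rpl33 next to psaJ. Of the 4 rpo genes of the polymerase core none was higher under mock and 1 was lower, rpoC1, named after its value was seen (-0.63 ± 0.24, SE, adjusted p = 0.0382).

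Arrays of 1 group differed in a shared way. Relative to the mean of its group, the average of the 44 genes ran from -0.24 on far-red mock replicate 3 to 0.31 on dark DEX replicate 2, where 43 of 44 genes lay above their group mean. The 32 other plastid genes moved with them, from -0.30 to 0.32 on the same arrays. Over 16 arrays the correlation of these deviations was 0.993, against 0.452 for 9 nuclear subunit genes and 0.424 for 12 mitochondrial genes. Several mitochondrial probe sets were dim, such as matR (group means 3.69 to 3.81) and ccmB (3.94 to 4.02). An average over fewer or dimmer genes is noisier, so these correlations are not compared on equal terms. The average of the 44 genes minus that of the 32 was nearly constant within a group: 0.00 ± 0.02 in dark mock, 0.01 ± 0.02 in dark DEX, 0.55 ± 0.04 in far-red mock and 0.58 ± 0.02 in far-red DEX (SD, n = 4 each, set to 0 in dark mock). Every far-red array lay between 0.53 and 0.61 and every dark array between -0.02 and 0.03. No test was made of this average, since the genes were listed with earlier results known.

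**Figure D4:**
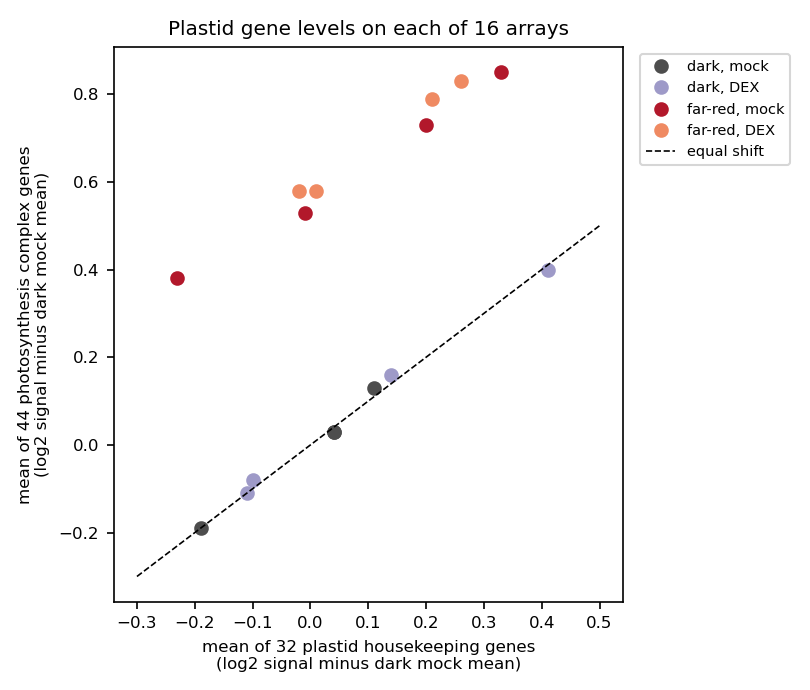
Mean of the 44 photosynthesis complex genes (y axis) against the mean of 32 plastid housekeeping genes (x axis) on each of the 16 arrays, both as log2 signal minus the dark mock mean; the dashed line marks an equal shift of both, and 2 dark mock points coincide. Dark arrays lie on the line and far-red arrays 0.53 to 0.61 above it.

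By complex, the average per array relative to dark mock was 0.77 ± 0.25 for photosystem II, 0.75 ± 0.22 for the ATP synthase, 0.70 ± 0.22 for cytochrome b6f, 0.49 ± 0.23 for photosystem I and 0.44 ± 0.18 for NDH in far-red mock (SD, n = 4), with rbcL at 0.03 ± 0.27. In far-red DEX the same averages were 0.85 ± 0.14, 0.83 ± 0.15, 0.72 ± 0.12, 0.56 ± 0.12 and 0.52 ± 0.14, with rbcL at 0.00 ± 0.20. The order of these averages was the same in both, but both use the dark mock means as baseline. The median log2 changes gave another order. Under mock the medians were 0.77 (cytochrome b6f), 0.71 (ATP synthase), 0.61 (photosystem II), 0.56 (photosystem I) and 0.50 (NDH). Under DEX, with far-red DEX set against dark DEX, the medians were 0.68, 0.67, 0.60, 0.58 and 0.41 in that sequence. The average of photosystem II holds psbA (2.31 under mock) and that of photosystem I holds psaC (-0.50 ± 0.30, SE). That of NDH holds the dim ndhB, ndhF and ndhH. The SDs of the averages hold the shift that all plastid genes of an array share. The complexes are therefore better set side by side on the same array. Cytochrome b6f lay above photosystem I on all 8 far-red arrays. In far-red mock it stood at 0.93, 0.56, 0.47 and 0.82 against 0.83, 0.35, 0.34 and 0.45. All 8 arrays are set against the same dark mock means, so they are not 8 separate comparisons. Photosystem I has 5 genes, and 1 is psaC, at 7.63 on dark mock replicate 2 and 5.67 to 6.24 on the others. The order of photosystem I and cytochrome b6f depends on psaC. Under mock the other photosystem I genes rose by 0.53 (psaA), 1.01 (psaB), 0.56 (psaI) and 0.86 (psaJ). These averages therefore do not place cytochrome b6f above photosystem I as a whole. On each far-red array rbcL was the lowest. Differences between complexes were not tested.

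Nuclear subunits of the same complexes were measured for 9 genes. Under mock 7 rose, with a median log2 change of 1.04, and the 4 with the smallest p were PSAN of photosystem I (1.91), PSBY of photosystem II (1.15), ATPC1, the gamma subunit of the ATP synthase (1.04), and the antenna gene LHCB4.1 (1.16). Under DEX 7 rose, with a median over all 9 of 0.84, and 2 fell, LHCB4.2 (-0.37) and ATPC2 (-0.25), named after their values were seen. The list of nuclear proteins that transcribe plastid genes held sigma factors, phage-type polymerases and polymerase-associated proteins. Of these 20, only AT5G15700 had a probe set named for it alone. Its change was 0.02 ± 0.08 under mock (SE, adjusted p = 0.887).

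Other measures also differed between the lights. RCA, which activates RuBisCO, was the only 1 of 9 listed green tissue markers with a probe set named for it alone. It rose by 1.46 in both comparisons, its linear signal going from 3420 to 4020 in dark mock to 9640 to 10600 in far-red mock. Of 15 root markers, EXPA7 and EXPA18 were measured; their summed linear signal was 61.3 to 96.1 in dark mock, 90.5 to 133 in dark DEX, 87.2 to 117 in far-red mock and 86.4 to 117 in far-red DEX. The 12 of 24 listed mitochondrial genes that were measured summed to 603 to 679, 531 to 701, 592 to 799 and 594 to 660 in the same order, with 1 called higher under mock (nad6, 0.52, named after its value was seen) and none under DEX. Several of these mitochondrial probe sets were dim, so a change in them could have been missed. For the actin control, the log2 signal of the 3′ probe set less that of the 5′ probe set ran from -0.25 to -0.06 in dark mock, from -0.41 to -0.17 in dark DEX, from -0.01 to 0.34 in far-red mock and from -0.10 to 0.11 in far-red DEX, so this set was higher in far-red than in darkness of the same treatment. No other control set was higher in far-red without overlap. A second actin set overlapped between the lights, at 1.21 to 1.56 in dark mock and 1.29 to 1.57 in far-red mock, and so did the first GAPDH set, at -0.18 to 0.06 and -0.12 to 0.03, and the second, at 0.88 to 1.09 and 1.05 to 1.28. The first ubiquitin set overlapped too, at 0.28 to 0.40 and 0.25 to 0.35, while the second was lower in far-red mock, at 1.13 to 1.24, than in dark mock, at 1.26 to 1.28. Under DEX the second sets overlapped but reached higher in far-red. Actin ran from 1.13 to 1.49 in dark DEX and from 1.35 to 1.59 in far-red DEX. GAPDH ran from 0.82 to 1.08 and from 0.87 to 1.22, and ubiquitin from 1.15 to 1.25 and from 1.19 to 1.35. The part of these in the light difference of the plastid genes was not tested.

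The second question was whether DEX changed these genes within 2 h. In darkness none of the 44 genes was called (limma, adjusted p under 0.05; 5.9% of all probe sets were), and 1 had an unadjusted p under 0.05, against 16.3% of all probe sets. In far-red none was called either, where 1.04% of all probe sets were, and 4 had an unadjusted p under 0.05, against 10% of all probe sets. In darkness no gene had all DEX arrays above or all below the mock arrays, as 5.01% and 5.6% of all probe sets had. In far-red there was none either, against 3.14% and 3.27%. The log2 changes ran from -0.21 to 0.30 in darkness (median 0.11) and from -0.14 to 0.44 in far-red (median 0.07).

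**Figure D5:**
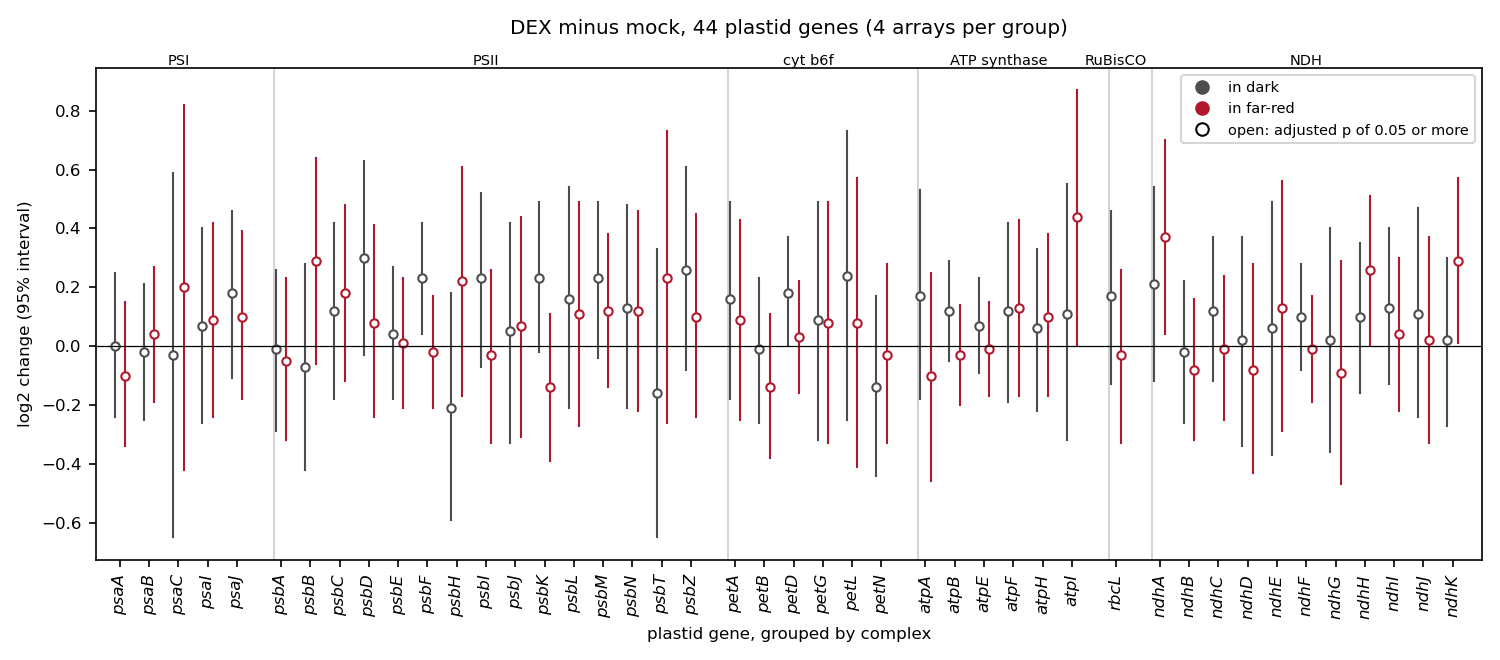
Log2 change of DEX against mock (y axis, with 95% intervals from the fit over 16 arrays) for the 44 genes in darkness and in far-red, grouped by complex (PSI and PSII, photosystems I and II; cyt b6f, cytochrome b6f). All points are open, that is, none has an adjusted p under 0.05, and they lie between -0.21 and 0.44.

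The 95% intervals, which are not adjusted for the number of probe sets, reached a median of 0.30 log2 units to either side. Over all probe sets the median was 0.18, so a change of the same size was harder to call in these genes. The shares of all probe sets given above come from this narrower spread. A change must be larger than its own interval to be called. psbA had DEX changes of -0.01 ± 0.13 in darkness and -0.05 ± 0.13 in far-red (SE), with intervals from -0.29 to 0.26 and from -0.32 to 0.23. psaB gave -0.02 ± 0.11 and 0.04 ± 0.11, petB -0.01 ± 0.12 and -0.14 ± 0.12, atpB 0.12 ± 0.08 and -0.03 ± 0.08, and rbcL 0.17 ± 0.14 and -0.03 ± 0.14 (SE). The gene with the smallest p in darkness was psbF (0.23 ± 0.09, adjusted p = 0.191), and it was called without dark DEX replicate 4 (0.31, adjusted p = 0.0477). In far-red the smallest p belonged to ndhA (0.37 ± 0.16, adjusted p = 0.421), followed by ndhK (0.29), ndhH (0.26) and atpI (0.44).

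Of the 44 changes in darkness 35 were above 0, as were 53% of all probe sets, and in far-red 28 were, against 42.4%. The 32 other plastid genes leaned the same way, with 27 above 0 in darkness (median 0.07) and 21 in far-red (median 0.04). For the 44 genes, the median in darkness was 0.00 without dark DEX replicate 2, on which 43 of 44 genes were above their group mean. In far-red the median was -0.03 without far-red mock replicate 3 and 0.15 without far-red mock replicate 1. The 2 DEX comparisons share no arrays with each other.

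The difference between the 2 DEX responses was tested for each gene. None was called (limma, adjusted p under 0.05; 2.15% of all probe sets were), and 1, psbK, had an unadjusted p under 0.05 (-0.37 ± 0.17, adjusted p = 0.361), against 12.6% of all probe sets. Neighbouring psbI stood at -0.26 ± 0.20. The 3 largest positive differences were those of psbH (0.42 ± 0.26), psbT (0.39 ± 0.33) and psbB (0.36 ± 0.24, SE; adjusted p = 0.551, 0.701 and 0.594), which share a transcript; their DEX changes were -0.21, -0.16 and -0.07 in darkness and 0.22, 0.23 and 0.29 in far-red. petB and petD of the same unit had differences of -0.12 and -0.16, and psbN, between psbT and psbH, of -0.01. The psbB value was lowered by far-red mock replicate 1. With that array left out, psbB was higher under DEX in far-red by 0.55 (adjusted p = 0.00442), and its 2 DEX responses differed by 0.62 (adjusted p = 0.0148).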

How the data were processed

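Per the submitters' processing notes, the authors used RMA and the affy package, with versions and settings not given in the sources used here, and deposited log2 signals per probe set for 16 arrays. Of 22810 probe sets, 64 manufacturer's controls were left out. All 16 sample columns were used (0 left unused). Probe sets were named through GEO's platform annotation, and gene order came from RefSeq (TAIR10.1).

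Each sample's title gave its group and replicate; the design text calls the 4 arrays of a group independent biological replicates. A linear model with 1 mean per group over all 16 arrays came from limma 3.58.1 under R 4.3.3 (lmFit, eBayes, 19.65 degrees of freedom with the prior), with Benjamini-Hochberg adjustment over 22746 probe sets; every adjusted p in the text comes from it unless an alternative is named. The script was tested on simulated data. Precision is limited by the number of arrays, 4 per group. The files hold no background or detection call.

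The genes, lists and tests were chosen with earlier results of these data known. Single-array values are given for the genes with the highest and lowest light change under mock in each complex, for any called for DEX (none was) and for 10 core genes. PSB27, an assembly factor, was left out of the nuclear subunits. The labels do not say that replicate numbers pair arrays, and the model did not pair them. Deviations of arrays with the same number correlated at -0.15 to 0.216. The values were 0.0815 to 0.216 for replicate 1 and -0.15 to 0.0162 for replicate 4. Whether arrays of the same number share a batch was not tested. Alternatives covered the variance prior, the samples fitted, dim probe sets, scaling, a replicate block, array weights and each array left out. A mean over several probe sets of a gene gave nothing to compare, since each gene had 1.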

Additional observations from a re-analysis of the deposited data

Results flagged for a closer look

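Among 176 sets of 4 arrays (44 genes in 4 groups), 6 held an array that stood apart from the other 3 by a gap test (3.41%; chance gives about 5%). On far-red mock replicate 1, psbB stood at 7.14 against 6.06 to 6.14 on the other arrays of its group, and psbD at 7.21 against 6.36 to 6.50. ndhA stood at 11.37 on far-red mock replicate 4, against 10.88 to 10.95. ndhD stood at 8.47 on dark DEX replicate 2, against 7.70 to 7.80, an array on which 43 of the 44 genes were above their group mean. ndhH stood at 4.2 on dark mock replicate 2, against 4.39 to 4.4, and at 4.42 on far-red DEX replicate 1, against 4.28 to 4.3, both on a dim probe set.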

How the results depend on the processing

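The light difference was stable in count: far-red was higher for 31 to 35 of the 44 genes under mock and 30 to 35 under DEX over the 8 alternatives that kept all arrays (34 in the fit reported), and for 29 to 37 and 29 to 35 when 1 array was left out. Of the 34 calls, 28 held in all 16 such fits in each comparison. Genes called lower in far-red under mock numbered 1 with array weights and 1 relative to the plastid housekeeping mean of each array (ndhH both times) and 0 to 1 when 1 array was left out; under DEX the latter scaling, chosen after seeing the data, gave 1 (rbcL, -0.20, adjusted p = 0.0402). DEX calls numbered 0 under those 8 alternatives, and when 1 array was left out 0 to 1 higher in darkness (psbF), 0 to 1 higher in far-red and 0 to 1 with a positive difference of responses (psbB both times). The trended and robust prior ended the calls of psbJ, psbT and ndhA under mock (adjusted p = 0.0755, 0.112 and 0.0776) and of psbJ, psbL, psbN and ndhE under DEX (0.0643, 0.0526, 0.0501 and 0.0628). With the replicate block, 35 genes were higher in each light comparison and none was called for DEX; ndhE was added under mock (adjusted p = 0.00418) and psbZ under DEX (0.0232). No called gene changed direction under any of the 24 alternatives. The arrays whose omission ended a light call were, under mock, dark mock 2 (psbD, psbJ, ndhA), 3 (psbD) and 4 (psbD, psbJ, psbT, ndhA), far-red mock 1 (psbD, psbJ, psbN, psbT), 2 (psbT) and 4 (psbJ, psbL, psbN, psbT, ndhA), and for psbT also dark DEX 4 and far-red DEX 1, 2 and 3. Under DEX they were dark DEX 1 (ndhE), 3 (psbJ, psbL, psbN, ndhC, ndhE) and 4 (psbJ, psbL, psbN, ndhE, ndhI), and far-red DEX 1 (psbJ, psbL, ndhE, ndhI), 2 (psbJ, psbL, psbN, ndhE) and 4 (ndhE). Leaving out dim probe sets removed 3 of the 44 genes. The cause of these shifts was not tested.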

Other observations

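Measured against the mean of the 32 other plastid genes on the same array, a scaling chosen after the shared array shift had been seen, 35 genes were higher in far-red under mock and 35 under DEX. The standard error of psbA fell from 0.13 to 0.07 on this scale and its rise was 2.23 under mock and 2.24 under DEX. The standard error grew for other genes, among them petD (from 0.09 to 0.16), petN (from 0.15 to 0.21) and psaA (from 0.12 to 0.15). petB rose by 0.87 ± 0.07 and 0.79 ± 0.07, psbK by 0.91 ± 0.07 and 0.58 ± 0.07 and atpA by 1.01 ± 0.09 and 0.78 ± 0.09 (SE). Under mock ndhH was lower (-0.35 ± 0.10, adjusted p = 0.00654). No gene was called for DEX or for the difference of the DEX responses on this scale either.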
